A study of Mus musculus with 4 samples.

Results

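The mitochondrial ribosomal protein genes are the nuclear genes that encode the protein parts of the ribosome inside mitochondria. They were taken by symbol from the protein-coding genes of the mm9 annotation, as every gene named Mrpl or Mrps plus a number, which gave 76 of 22380 genes. Of these, 47 carry an Mrpl symbol, given to proteins of the large subunit, and 29 an Mrps symbol, given to the small subunit. The rule reads symbols only, though the group itself was proposed with earlier results of these data known. The symbols do not follow the subunits in every case: the products of Mrps18a and Mrps30 are now placed in the large subunit.

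The mitochondrial ribosome makes the few proteins encoded by mitochondrial DNA, all of them core parts of the respiratory chain and ATP synthase. Its RNA is transcribed inside the organelle, whereas its proteins are encoded in the nucleus, made in the cytosol and imported. CREB is a transcription factor that binds the cAMP response element (CRE) at promoters, and protein kinase A phosphorylates it at serine 133 when cAMP rises, a signal that parathyroid hormone gives to osteoblasts.

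The libraries came from MC3T3-E1, an established line of mouse pre-osteoblasts, in which phosphorylated CREB was immunoprecipitated and the bound DNA was sequenced. Cells received DMSO vehicle or 100 nM forskolin, which activates adenylyl cyclase, for 1 h, and each treatment has 2 libraries given as biological replicates. No genetic change was named for either group, and the input library came from an earlier series and was not analysed here. Regions lay within 10 kb of a transcription start site (TSS) of 5 of 5 osteoblast markers, 1 of 3 adipocyte markers (Adipoq), 1 of 3 haematopoietic markers (Cd68) and 0 of 3 skeletal muscle markers, beside 55.1% of all protein-coding genes.

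The peak lists held 14686 and 10180 peaks for vehicle and 25566 and 19371 for forskolin, each with a score whose scale was not stated. Peaks that shared at least 1 bp were merged into 28335 regions, of which 8930 had a peak in all 4 libraries, 5187 in both forskolin libraries alone (forskolin-only) and 125 in both vehicle libraries alone (vehicle-only). Scores were read as percentiles within each list, where 100 is the strongest peak. Read depth is unknown. In each list most scores below 50 (98.8 to 100%, where chance gives 14.5 to 44.6%) lay within 0.05 of a whole multiple of a step, and if 1 step is 1 read, forskolin replicate 2 had 0.347 of the depth of forskolin replicate 1, against 1.03 and 1.06 for vehicle replicates 1 and 2.

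Some of the promoters that carried phospho-CREB in every library are shown here by their DNA. The stretches below are shown because they hold the CRE letters under some of the strongest regions. They are not typical. Of the 63 promoter regions of these genes, 39 held no CRE core within 100 bp of the centre, and 2 held the full CRE. All sequences were read from the mm9 genome (NCBIM37), run 5′ to 3′ along the strand of the named gene, and have in capitals the full CRE TGACGTCA or its core TGACG, which reads CGTCA on the other strand.
Mrpl16: gtgggacaggaTGACGTCActtcctgtctt
Mrpl49: cctgctgcgtgTGACGTCActgcagcgcga
Mrpl2: cgcctctctcgCGTCAttggaaagcga
Mrpl28: cgcacgttcggTGACGctattccggtt
Mrps12: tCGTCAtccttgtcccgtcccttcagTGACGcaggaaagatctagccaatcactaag
Mrpl50: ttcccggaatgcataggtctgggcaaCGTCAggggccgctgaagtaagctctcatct
The Mrpl16 stretch is chr19:11844845-11844874 on the plus strand, upstream of the first exon, with the full CRE centred 21.5 bp before the TSS. That of Mrpl49 is chr19:6057891-6057920 on the minus strand. It lies 147.5 bp before the TSS of Mrpl49 and inside the untranslated first part of Fau, the divergent neighbour that encodes a protein of the cytosolic ribosome. The Mrpl2 stretch is chr17:46783138-46783164 on the plus strand, 27 bp before the TSS. That of Mrpl28 is chr17:26260436-26260462 on the plus strand, 16 bp before the TSS. The Mrps12 stretch, chr7:29526848-29526904 on the minus strand, holds 2 cores between Mrps12 and its divergent neighbour Sars2. The Mrpl50 stretch is chr4:49533974-49534030 on the minus strand, 37 bp before the TSS.

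Most of these genes had phospho-CREB at the promoter with or without forskolin. A region called in all 4 libraries had its centre at most 1 kb from a TSS in 64 of the 76 genes (84.2%, Wilson 95% interval 74.4 to 90.7%), where the same held for 30.2% of all protein-coding genes. Promoters with a peak in any library numbered 74 of 76, beside 44.4% of all genes. Among genes with any peak there, all 4 libraries were called in 64 of 74 mitochondrial ribosomal protein genes (86.5%) and in 6768 of 9927 genes overall (68.2%). Intervals here cover counting error over genes only, and no test was made of the list against other genes.

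Both subunits showed this. The large-subunit symbols had such a promoter region in 40 of 47 genes (85.1%) and the small-subunit symbols in 24 of 29 (82.8%). Proteins inherited from the bacterial ribosome had it in 39 of 48 genes, and proteins particular to the mitochondrial ribosome in 25 of 28. The shares of the subunits differed by less than their intervals, which ran from 72.3 to 92.6% and from 65.5 to 92.4%. Genes of the cytosolic ribosome had it in 75 of 83 cases and genes of the respiratory chain and ATP synthase, taken by the start of their symbols, in 68 of 91. At 10 kb the count of mitochondrial ribosomal protein genes was 67, beside 37.4% of all genes, and at 100 kb it was 76, beside 67% of all genes.

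**Figure D1:**
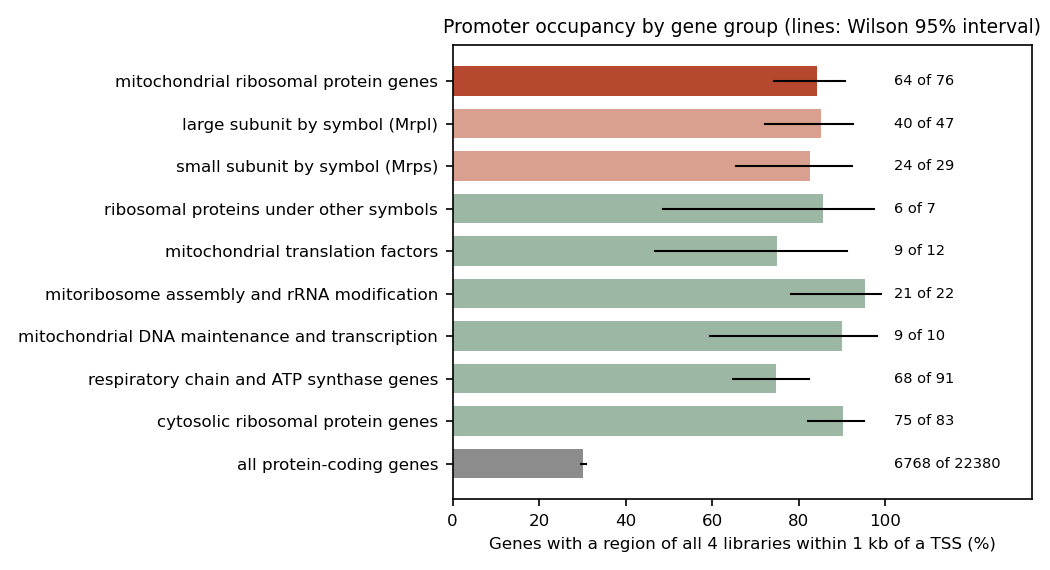
Share of genes (%) with a region called in all 4 libraries at most 1 kb from a TSS, for the mitochondrial ribosomal protein genes, their Mrpl and Mrps members and related gene groups, with Wilson 95% intervals as lines and the counts at the right. The bar of the 76 genes ends at 84.2%, above the 30.2% of all protein-coding genes, and the bars of Mrpl and Mrps end at 85.1% and 82.8%.

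The regions sat on the start sites. The median distance from region centre to TSS was 40.25 bp, beside 74 bp for all genes with such a region, and 53 of the 64 centres (82.8%) lay within 100 bp of a TSS, beside 59.5%. The farthest was that of Mrps18b, 445.5 bp upstream. The 64 genes used 63 regions, because Mrpl46 and Mrps11 are transcribed away from each other out of a single region at chr7:85927736-85928123.

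Neighbours limit what can be ascribed to a gene. In 42 of the 63 regions the only TSS within 1 kb belonged to a mitochondrial ribosomal protein gene, in 21 another gene also started there, and in 9 that other gene was closer to the centre. Divergent neighbours were sought upstream of the 5′-most TSS of each gene, by which Mrps11 had one and Mrpl46 had none. A gene of the opposite strand started within 1 kb upstream in 23 of the 76 genes (30.3%, interval 21.1 to 41.3%). This held for 9.07% of all protein-coding genes and 27 of 91 genes of the respiratory chain and ATP synthase (29.7%). The partners include Sars2, the mitochondrial seryl-tRNA synthetase, opposite Mrps12, and Peo1, the helicase of mitochondrial DNA, opposite Mrpl43, but also Tcp1, a cytosolic chaperonin subunit, opposite Mrpl18, and Ncapd2, a condensin subunit, opposite Mrpl51. These 4 pairs were chosen after the partners were seen, as examples. A region of all 4 libraries was present at 18 of the 23 divergent promoters and at 46 of the other 53. Over all genes these shares were 71.4% and 26.1%. When each region was given to the gene with the nearest TSS alone, 55 of the 76 genes kept one, beside 26.3% of all genes.

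The strongest promoters ranked near the top of every list. Mrpl2, which encodes a conserved core protein of the large subunit, had scores of 146 and 112 with vehicle and 312 and 216 with forskolin, at percentiles 99.8, 99.7, 99.9 and 99.9. Its 2 forskolin ranks lay above its 2 vehicle ranks, by 0.148 percentile points in the mean. Next came Mrpl47, with percentiles of 99.8 and 99.5 with vehicle and 99.9 and 99.5 with forskolin, in a region that lies closer to the TSS of Ndufb5, a complex I subunit. The groups of Mrpl47 overlapped.

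Mrpl49 had percentiles of 98.4 and 98.9 with vehicle and 99.2 and 98.9 with forskolin, in the region shared with Fau. Mrpl4, whose bacterial counterpart lines the exit tunnel, had 98.1 and 97.0 with vehicle and 98.9 and 98.2 with forskolin. Mrpl55 had 98.4 and 96.8 against 98.6 and 98.6. The ranks of Mrpl4 and Mrpl55 did not overlap between treatments, and those of Mrpl49 did.

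The 5 promoters called everywhere that had the lowest percentile in any single library were those of Mrpl33, Mrpl23, Mrpl9, Mrps9 and Mrps22. A choice on 1 low library favours genes whose replicates differ, so that the gaps between replicates here are no finding, and Mrpl33 and Mrpl23 were well above the bottom in the other 3 libraries. Mrpl33 had percentiles of 68.2 and 4.94 with vehicle and 66.2 and 50.5 with forskolin. Mrpl23, whose bacterial counterpart sits at the end of the exit tunnel, had 70.4 and 6.70 against 61.9 and 67.5. Mrpl9 had 33.3 and 6.70 against 42.6 and 22.2. In all 3 genes the treatments overlapped, and vehicle replicate 2 was the lowest library. Mrps9 had 33.3 and 8.71 against 55.9 and 27.2, and Mrps22, a small-subunit protein with no bacterial counterpart, had 41.6 and 18.4 against 28.0 and 12.4. Both also overlapped. Just outside these 5, the lowest percentile of Mrps11 and Mrpl46, in their shared region, was 13.3.

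Between these ends the ranks were spread widely. Peaks in the top 10% of a list covered 19 and 14 of the 64 promoters with vehicle and 18 and 14 with forskolin, which is 29.7, 21.9, 28.1 and 21.9%, beside 23.8, 16.7, 28.1 and 23.5% of all genes with a promoter region. Large-subunit symbols had median percentiles of 86.1 and 70.9 with vehicle and 85.1 and 77.3 with forskolin, and small-subunit symbols had 74.6 and 48.3 against 74.4 and 65.9. The large-subunit median was above that of the small subunit in each of the 4 libraries, and this difference was not tested. The 5 genes after the highest 5, chosen after their values were seen, were Mrpl34, Mrps17, Mrps18b, Mrpl28 and Mrpl12. Mrpl34 had 96.7 and 96.5 with vehicle and 98.2 and 98.2 with forskolin, and Mrpl28 had 95.9 and 95.7 against 98.1 and 97.6, both without overlap. Mrps17, whose bacterial counterpart binds ribosomal RNA early in assembly, had 98.1 and 96.3 against 96.4 and 97.7. Mrpl12, whose product also binds the mitochondrial RNA polymerase, had 97.1 and 95.7 against 97.4 and 94.2. The treatments overlapped in Mrps17 and Mrpl12.

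The 3 genes Mrps18a, Mrps18b and Mrps18c encode relatives of a single bacterial protein and differed in rank. Mrps18b had percentiles of 96.9 and 96.0 with vehicle and 97.4 and 95.9 with forskolin, in a region nearest to Ppp1r10, a regulator of protein phosphatase 1. Mrps18a had 62.5 and 39 against 58.4 and 22.2. Mrps18c had 65.9 and 21.2 against 64.9 and 44.1. Mrps18b was above the other 2 genes in every library, and within each gene the treatments overlapped.

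**Figure D2:**
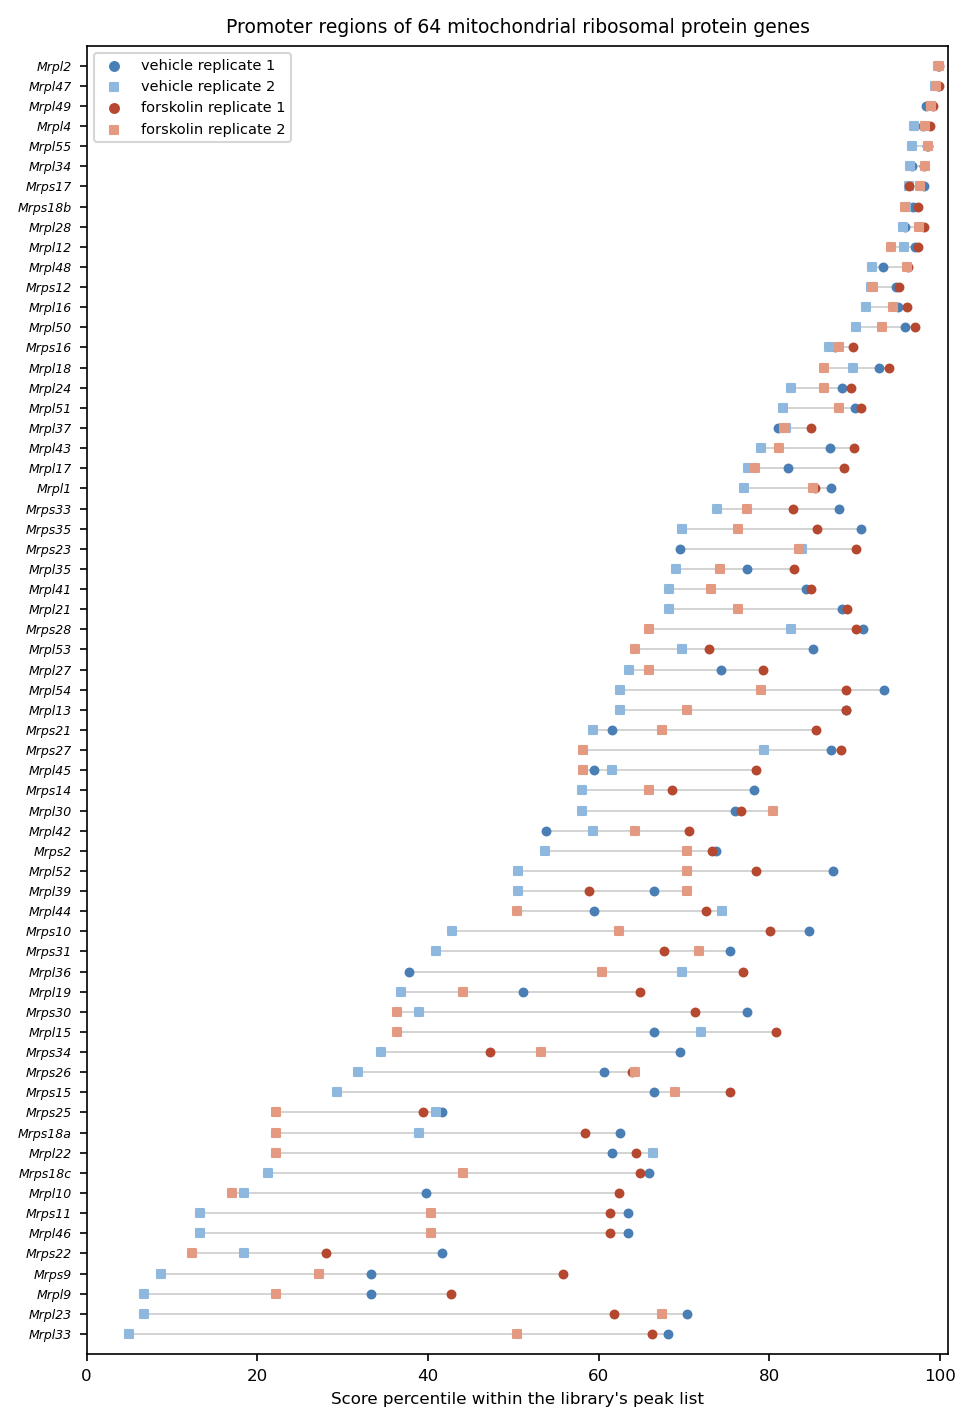
Score percentile of the promoter region of each of 64 mitochondrial ribosomal protein genes in its library's peak list (horizontal axis, 100 is the strongest peak), with genes ordered by their lowest value. Each point is 1 library (blue vehicle, red forskolin) and each grey line spans the 4 libraries. Mrpl2 lies at 99.7 or above throughout, and Mrpl33 runs from 4.94 to 68.2.

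The number of these promoters that were called differed less between treatments than between replicates. A peak lay within 1 kb of a TSS in 74 and 68 genes in the vehicle libraries and in 74 and 70 in the forskolin libraries (71 ± 4.24 against 72 ± 2.83, SD, n = 2 each, exact two-sided permutation p = 1, where the smallest p this design allows is 0.33). The treatments overlapped, and replicate 1 had more called promoters than replicate 2 in both. For all protein-coding genes the numbers were 8618 and 7223 with vehicle and 9651 and 8754 with forskolin, which did not overlap (exact permutation p = 0.33). The difference of the means was 1 among the 76 mitochondrial ribosomal protein genes and 1282 among all 22380 genes. These differences cannot be compared directly. Vehicle replicate 1 already had a peak at 97.4% of the mitochondrial ribosomal protein genes, beside 38.5% of all genes, which left little room for a rise.

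The 12 genes without such a promoter region mostly lacked a peak in replicate 2 of 1 or both treatments. Mrpl11, Mrpl14 and Mrpl32, all large-subunit proteins with bacterial counterparts, were called in vehicle replicate 1 and both forskolin libraries. The percentiles of Mrpl11 were 73.2, 77.9 and 67.5 in those libraries, and those of Mrpl14 were 0.712, 21.8 and 2.99. The region of Mrpl32, with 51.1, 49.9 and 60.4, was nearest to the TSS of Psma2, a proteasome subunit. Mrpl20, Mrpl38 and Mrps5 were called in replicate 1 of each treatment alone. Mrpl3 was called in both vehicle libraries and forskolin replicate 1, at percentiles 33.3, 10.9 and 52.3.

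Mrpl40, Mrps7 and Mrps36 had a peak within 1 kb in all 4 libraries, but the peaks did not touch and formed separate regions. The product of Mrps36 has since been assigned to the oxoglutarate dehydrogenase complex. Mrps6 and Mrps24 had no region within 10 kb in any library. Vehicle replicate 1 and forskolin replicate 1 each had a peak at all 74 promoters that had one at all. Every gap over those 74 promoters was in replicate 2 of a treatment, with 6 in vehicle and 4 in forskolin.

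Whether the promoter regions rose or fell in rank with forskolin depended on the scale. Within each full list, the median percentile of the 64 regions was 81.6 and 68.7 with vehicle and 82.8 and 70.4 with forskolin, a difference of 1.49 points (exact two-sided permutation p = 0.667). The libraries overlapped. For all 6768 genes with such a region the medians were 76.5 and 66.4 against 79.7 and 74.2. Ranked only among the 8930 regions of all 4 libraries, the 64 genes had medians of 70.5 and 65.2 with vehicle and 60.8 and 49.6 with forskolin. On that scale forskolin was lower by a difference of -12.7 points without overlap (exact permutation p = 0.33, the smallest possible), and over all genes the difference was -7.85 points.

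The counts per gene turned with the scale in the same way. On the full-list scale, 12 of 64 regions (18.8%) ranked higher in both forskolin libraries than in both vehicle libraries, beside 36.9% of all genes with such a region, and 1 (1.56%) ranked lower in both, beside 2.41%. On the scale of shared regions, 1 ranked higher, beside 7.7%, and 25 (39.1%) ranked lower, beside 38.1%. With all 4 libraries the share of risers was thus below the background on both scales, and the share that fell was near it. The region that ranked higher on both scales was that of Mrpl2. Single libraries moved these counts. On the full-list scale 45 of 64 regions ranked higher without vehicle replicate 1, near the 71.9% of all genes, and 40 of 66 without forskolin replicate 2, beside 69.2%. The count was 17 of 68 without vehicle replicate 2, beside 41.6%, and 13 of 64 without forskolin replicate 1, beside 41.7%. Without vehicle replicate 2, 22 of 68 ranked lower, beside 24.1%, and without forskolin replicate 1 it was 15 of 64, beside 22.6%.

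Among genes whose treatments did not overlap, the 3 largest rises on the full-list scale were in Mrps15, Mrps26 and Mrps21. Among genes whose treatments overlapped, shifts larger in size than the 16.0 points of Mrps21 were those of Mrpl23 (26.1 points), Mrpl33 (21.8), Mrpl22 (-20.7) and Mrps9 (20.5). Mrps15 had percentiles of 66.5 and 29.4 with vehicle and 75.4 and 69.0 with forskolin, a mean shift of 24.3 points. Mrps26 had 60.6 and 31.8 against 63.9 and 64.3, a shift of 17.9. Mrps21 had 61.6 and 59.3 against 85.5 and 67.5, a shift of 16.0, in a region that also serves C920021L13Rik. In each the forskolin values lay above the vehicle values. On the scale of shared regions all 3 overlapped, with 48.3 and 25.1 against 46.7 and 47.7 for Mrps15, 40.6 and 27.5 against 27.4 and 41.5 for Mrps26, and 41.9 and 55.2 against 66.3 and 45.6 for Mrps21. The other 9 genes above without overlap on the full-list scale were Mrpl30, Mrpl42, Mrpl48, Mrpl28, Mrps16, Mrpl34, Mrpl4, Mrpl55 and Mrpl2, with shifts from 0.148 points for Mrpl2 to 11.5 points for Mrpl30. Mrps25, a small-subunit protein of the mitochondrial ribosome alone, was the single gene below without overlap on the full-list scale, with 41.6 and 40.9 against 39.4 and 22.2, and its values on the scale of shared regions were 20.5 and 36.2 against 5.13 and 7.61.

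**Figure D3:**
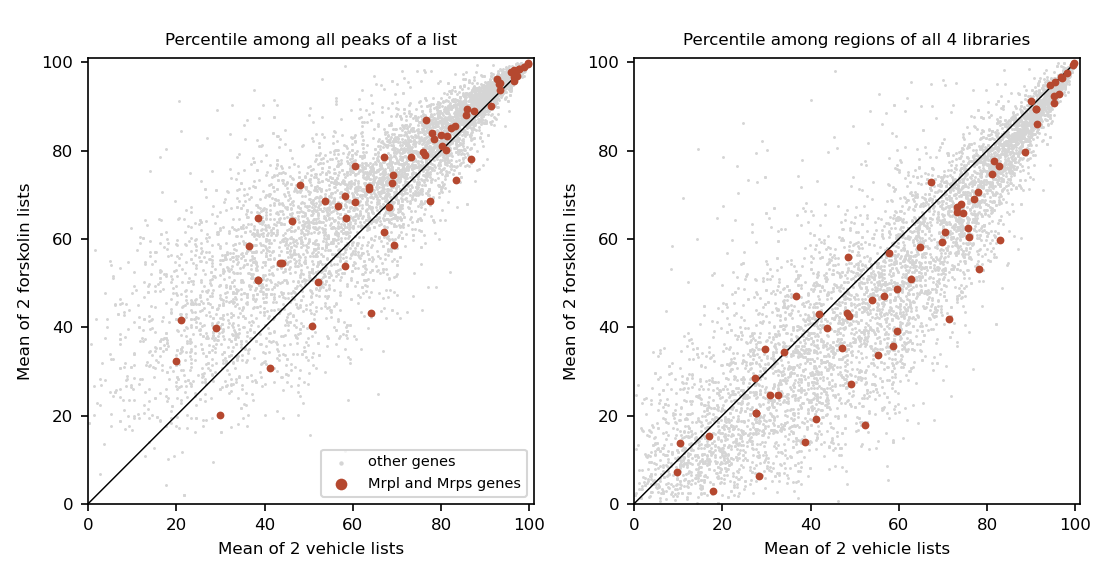
Mean percentile of promoter regions in the 2 vehicle lists (horizontal) and the 2 forskolin lists (vertical), each point being 1 gene and red points the 64 mitochondrial ribosomal protein genes; the line marks equal rank. Ranked among all peaks of a list (left) the red points lie on both sides of the line, with a median shift of 2.59 points, and ranked among the regions of all 4 libraries (right) most lie below it, with a median shift of -6.26 points, as do most other genes.

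Forskolin-only regions were found near these genes at about the background rate. They lay within 1 kb of a TSS in 2 of 76 genes (2.63%), beside 3.11% of all protein-coding genes. At 10 kb there were 7 (9.21%), beside 8.86%, and at 100 kb 36 (47.4%), beside 39.6%. The interval at 100 kb, 36.5 to 58.4%, includes the share of all genes. Without vehicle replicate 1 the count at 1 kb was 6, beside 7.66%, and that at 10 kb was 13, beside 15.6%. Without forskolin replicate 1 it was 4 at 1 kb, beside 4.88%, and without forskolin replicate 2 it was 12 at 10 kb, beside 17.5%. Vehicle-only regions lay within 1 kb of 2 genes, beside 0.246% of all genes, within 10 kb of 3, beside 0.416%, and within 100 kb of 3, beside 2.08%.

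All 3 genes with a vehicle-only region had a forskolin-only region next to it. At Mrpl40 the forskolin-only region, chr16:18876434-18876788, had percentiles of 60.7 and 50.5 and the vehicle-only region, chr16:18876867-18877193, had 63.5 and 42.8. Only 78 bases separated them, and the second lay toward Hira, a histone chaperone gene that starts 270 bp from Mrpl40. At Mrpl48, 269 bases separated a vehicle-only region with percentiles of 1.70 and 1.13 from a forskolin-only region with 78.5 and 78.3, both in an intron near an internal TSS. At Mrps35, 73 bases separated a vehicle-only region with 43.4 and 1.13 from a forskolin-only region with 90.9 and 76.3, again in an intron and 1133 bp past an internal TSS. When peaks within 500 bp were joined, none of the 3 genes had a forskolin-only or vehicle-only region within 10 kb. Of all 125 vehicle-only regions, 41 (32.8%) had a forskolin-only region within 500 bp.

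**Figure D4:**
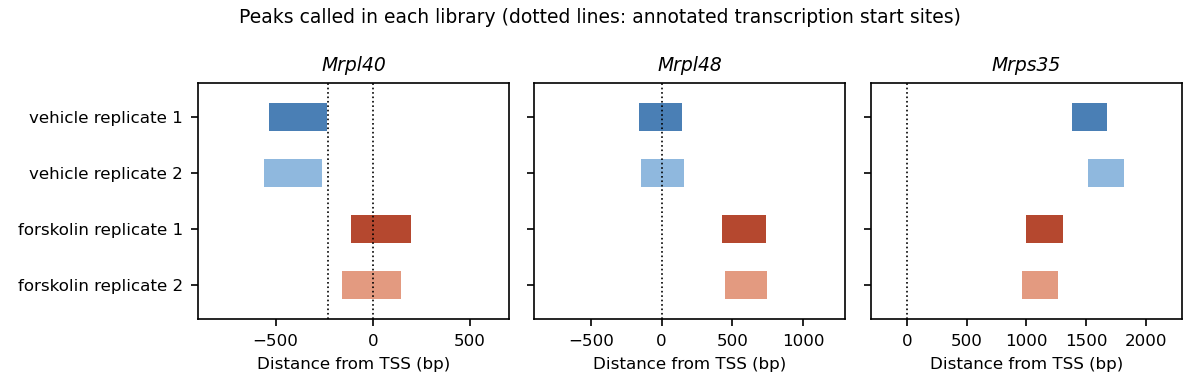
Peaks called in each library (blue vehicle, red forskolin) at Mrpl40, Mrpl48 and Mrps35, by distance from a TSS (bp, positive in the direction of transcription), with annotated TSSs as dotted lines. In each gene the peaks of both vehicle libraries and of both forskolin libraries lie side by side without touching, with 78, 269 and 73 bases between the merged regions.

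The forskolin-only regions of Mrps35 and Mrpl48 are shown because each holds a CRE or AP-1 match close to its centre. Capitals mark the CRE core in Mrps35, at chr6:147010860-147010916 on the plus strand, and the AP-1 letters TGAGTCA on their reverse strand in Mrpl48, at chr7:107739333-107739391 on the minus strand. Both stretches are intronic.
Mrps35: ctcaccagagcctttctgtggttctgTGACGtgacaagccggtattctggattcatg
Mrpl48: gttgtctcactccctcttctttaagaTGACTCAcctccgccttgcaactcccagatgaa
The core of Mrps35 lay 18 bp from the region centre, and the AP-1 match of Mrpl48 8 bp. The main promoter region of Mrpl48, with percentiles of 93.3 and 92.1 with vehicle and 96.3 and 96.2 with forskolin, was another one, nearest to Rab6, a gene of Golgi transport. That of Mrps35, at its first TSS, had 90.7 and 69.8 against 85.6 and 76.3.

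The other 4 genes with a forskolin-only region within 10 kb had it away from the promoter. For Mrpl33 it was in an intron 4001 bp upstream of an internal TSS, at percentiles 61.3 and 27.2. For Mrpl52 it lay 6792 bp downstream of the TSS, in an intron of the matrix metalloproteinase gene Mmp14, at 44.6 and 47.5. The regions of Mrps18a, 6213.5 bp upstream, and of Mrps28, 5816.5 bp upstream in Tpd52, were weak, at 37.2 and 5.31 and at 13.2 and 12.4. Among the regions farther out, a strong one lay 30376 bp upstream of Mrpl51, at chr6:125111283-125111603 in Iffo1, with percentiles of 97.1 and 93.7. It was chosen after its values were seen.

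The full CRE was found at few of these promoters. It lay within 100 bp of the region centre in 2 of the 63 regions (3.17%, interval 0.875 to 10.9%), those of Mrpl16 and Mrpl49. The interval includes the 7.32% of 5862 promoter regions of all genes. Mrpl16 had scores of 45.5 and 31.6 with vehicle and 88.1 and 59.9 with forskolin, at percentiles 95.1, 91.4, 96.1 and 94.5, and its treatments overlapped in rank. The CRE core TGACG, counted on either strand and also inside a full CRE, was in 24 regions (38.1%), beside 43.0%. The AP-1 letters TGAGTCA were in 0 of 63, which allows a share of up to 5.75% (Wilson), beside 2.23%.

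Regions with a CRE core ranked higher in every library. Their median percentiles were 93.4 and 86.4 with vehicle and 92.7 and 88.6 with forskolin, against 69.6, 59.3, 72.6 and 64.3 for the 39 regions without one. All promoter regions differed in the same direction, with 86.7, 81.6, 89.7 and 87.6 against 68.2, 53.7, 71.7 and 62.4. A higher median in every library was not particular to the CRE core. Regions of these genes with the letters CCAAT had 88.4, 81.7, 89.4 and 84.1, against 76.0, 66.4, 80.1 and 67.5 without them. Those with the GC box GGGCGG were also higher, and those with the ETS, YY1 or NRF1 letters given below (24, 8 and 3 regions) were lower. Over all promoter regions, those with CCAAT, GC box, ETS or YY1 letters were higher in every library, and those with NRF1 letters lower. The medians there were 76.0, 65.6, 79.5 and 74.2 with a GC box, against 75.4, 64.7, 78.8 and 73.1 without. With ETS letters they were 79.0, 69.1, 81.0 and 74.2, against 74.9, 63.6, 78.5 and 73.1. These gaps were not tested. There were 34 core sites in the 24 regions, of which 26 lay within 50 bp of the region centre and 18 in the 150 bp before a TSS. Mrpl2 and Mrpl16 each had 3, with a full CRE counting as 1 on each strand.

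ETS and YY1 letters were more frequent, and GC boxes less frequent, than in all promoter regions. CCGGAAG, a site of ETS factors, was in 24 of the 63 regions (38.1%, interval 27.1 to 50.4%), beside 20.7%. AAGATGGCG, a site of YY1, was in 8 (12.7%, interval 6.58 to 23.1%), beside 4.52%, and within 50 bp of the centre in 5 (7.94%), beside 2.58%. CGCATGCG, a site of NRF1, a regulator of nuclear genes for mitochondria, was in 3 (4.76%), beside 2.71%. The GC box GGGCGG was in 24 (38.1%), beside 52.1%, and CCAAT was in 20 (31.7%), beside 35.0%. The 67 promoter regions of respiratory chain and ATP synthase genes had YY1 letters in 11.9%, GC boxes in 40.3% and ETS letters in 22.4%, and the differences between the lists were not tested. The stretches below show such letters beside the start sites, with the ETS, YY1 or NRF1 letters of the named site in capitals, and they read CTTCCGG for ETS where the match is on the other strand.
Mrpl22 ETS: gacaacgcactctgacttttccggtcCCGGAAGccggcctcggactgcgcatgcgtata
Mrpl22 NRF1: gcctcggactgCGCATGCGtatagtcagcc
Mrps27 ETS: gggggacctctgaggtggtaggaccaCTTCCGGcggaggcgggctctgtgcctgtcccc
Mrps27 YY1: ggtgcgctccAAGATGGCGgctcccatgg
Mrpl46 YY1: ggaagacagaAAGATGGCGgcgcccgtag
Those of Mrpl22 are chr11:57985087-57985145 and chr11:57985123-57985152 on the plus strand, 47 bp and 25.5 bp before the TSS. Those of Mrps27 are chr13:100114667-100114725 and chr13:100114745-100114773 on the plus strand, and the YY1 letters lie 18 bp past the TSS. That of Mrpl46 is chr7:85927899-85927927 on the minus strand, 39 bp past its TSS, in the region shared with Mrps11. A match is a string of letters and not a measured binding site.

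**Figure D5:**
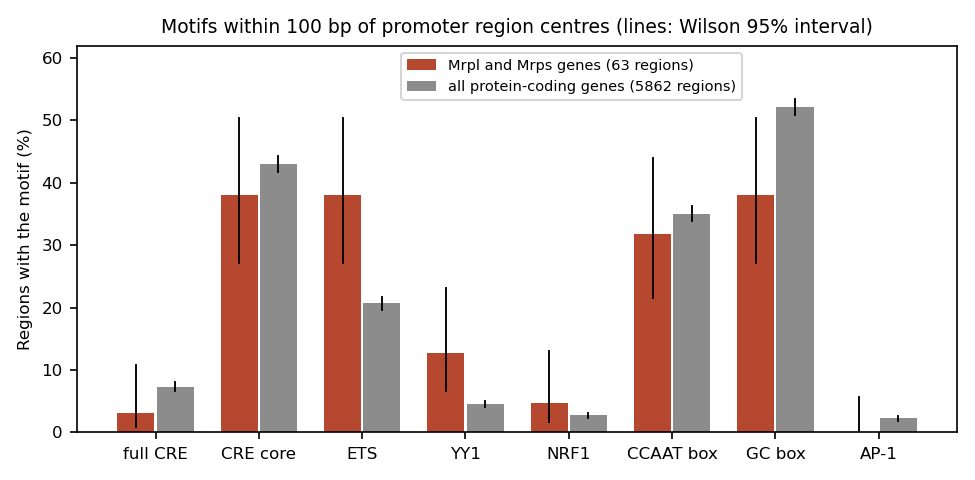
Share of promoter regions (%) with each motif within 100 bp of the region centre, on either strand, for 63 regions of mitochondrial ribosomal protein genes (red) and 5862 regions of all protein-coding genes (grey), with Wilson 95% intervals as lines. The red bars are higher for ETS (38.1 against 20.7%) and YY1 (12.7 against 4.52%) and lower for the GC box (38.1 against 52.1%).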

How the data were processed

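Phospho-CREB ChIP-seq peak lists of 4 MC3T3-E1 libraries, 2 with vehicle and 2 with forskolin, were grouped by their titles. Each deposited list is 1 library's own calls, with a score per peak as the authors deposited it; its scale and the thresholds of the caller were not given in the sources used here. Bowtie, HOMER and build mm9 are named in the submitters' processing notes. All peaks of a list had 1 width, from 301 to 311 bp. The sequencer of each library was likewise not given.

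Peaks sharing 1 bp were merged. Distances run from region centre to the nearest annotated TSS of a gene (GENCODE M1 on NCBIM37, where 0 of 28335 regions passed a chromosome end). A gene's promoter region was the region of all 4 libraries within 1 kb whose lowest percentile was highest. Motifs were sought up to 100 bp either side of region centres, on either strand. Shares have Wilson 95% intervals. Differences between library values had exact permutation tests over libraries. Each p-value is the share of assignments of the treatment labels to these libraries with a difference at least as large as that seen. It covers these libraries only. Merging and assignment were tested on simulated lists. Python 3.11.15, numpy 2.4.6, scipy 1.17.1 and pysam 0.24.0 were used.

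Genes named were those with forskolin-only or vehicle-only regions within 10 kb, those without a promoter region, the 5 highest and 5 lowest, the 3 largest rises and falls without overlap, those with a full CRE, and the Mrps18 family; others are named as neighbours, with their sequences, as further genes without overlap, or as chosen after their values were seen. A symbol with more than 1 gene entry counted once in the related lists. The members and lists were chosen with earlier results of these data known. The split by bacterial counterpart and the nearest-TSS count were chosen after seeing the data. Alternatives were other merging, shorter lists, single TSSs, region edges, other rank scales, narrower motif windows and each library left out.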

Additional observations from a re-analysis of the deposited data

How the results depend on the processing

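The count of 64 genes with a promoter region of all 4 libraries, beside 30.2% of all genes, stayed within 1.5 times under every alternative. With peaks within 500 bp joined it was 67, beside 31.1% of all genes, and with 50% of the shorter peak shared 61, beside 28.8%. In the top 50% of each list it was 43, beside 18.5%, and with lists cut to equal length 49, beside 22.3%. With the nearest TSS alone it was 55, beside 26.3%. It was 63 with 1 TSS a gene, 64 from region edges, and 64 to 68 leaving out a library. The 68 came without vehicle replicate 2, beside 34.5%. The counts that moved by more were as follows. Joining peaks gave forskolin-only counts of 0 at 1 kb and 4 at 10 kb, beside 2.74% and 8.33% of all genes. Vehicle-only counts were then 0 at 1, 10 and 100 kb, beside 0.0894%, 0.161% and 0.889%. Sharing 50% left 0 genes lower without overlap, beside 2.44% of all genes with a promoter region. The top 50% also left 0, beside 2.44%, and vehicle-only counts of 0, 0 and 1, beside 0.139%, 0.223% and 1.10% of all genes. With 1 TSS a gene, forskolin-only counts were 1 and 4, and vehicle-only counts 1 and 1, at 1 and 10 kb. The shares of all genes under that setting are not given here, so these counts cannot be read against a background.

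With equal lists, vehicle-only counts were 7, 10 and 22 at 1, 10 and 100 kb, beside 2.97%, 4.51% and 17.8% of all genes, and forskolin-only counts were 3 at 10 kb and 15 at 100 kb, beside 2.55% and 15.1%. Then 1 of 49 genes was higher and 26 were lower, beside 3.6% and 56.2% of all genes with a promoter region. On the scale of shared regions the counts were 1 and 25 of 64 genes, beside 7.7% and 38.1%. The difference in called promoters turned to -11, and the median percentile difference to -14.2 (both exact permutation p = 0.33, the smallest possible), against -12.7 on the scale of shared regions. The shifts of Mrps15, Mrps26 and Mrps21 turned to -0.884, -16.8 and -1.12. A motif window of 50 bp gave 22.2% for ETS, 7.94% for YY1, 1.59% for NRF1, and 20.6% for the GC box and for CCAAT, beside 12.7%, 2.58%, 1.30%, 32.7% and 23.7% of all promoter regions.

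Forskolin-only counts with a library left out ran from 2 to 6 at 1 kb, beside 3.86 to 7.66% of all genes. At 10 kb they ran from 7 to 13, beside 10.1 to 17.5%, and at 100 kb from 38 to 52, beside 42.5 to 59.7%. Vehicle-only counts ran from 2 to 4, 3 to 5 and 4 to 10. The shares of all genes beside them ran from 0.429 to 1.65%, 0.715 to 2.84% and 3.5 to 12%. The ends of a count range and of a share range need not come from the same library. Genes ranked higher numbered 13 to 45 and lower 1 to 22. Without vehicle replicate 1, 45 were higher, beside 71.9% of all genes with a promoter region, and without forskolin replicate 1, 13 were, beside 41.7%. Without forskolin replicate 2, 40 were higher, with the share of all genes given above. Without vehicle replicate 2, 22 were lower, beside 24.1%. The difference in called promoters ran from -2 to 4, with -2 without vehicle replicate 2 and -1 without forskolin replicate 1. The median difference ran from -4.74 to 7.96, with -2.39 and -4.74 without those libraries. The cause of these moves was not tested.

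Replicate numbers are shared between treatments but not said to pair cultures. With the replicate block, an exact sign-flip over the pairs, the differences were 1 called promoter (p = 1) and 1.49 points (p = 0.5, the smallest possible).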

Other observations

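Other genes of mitochondrial gene expression also had promoter regions of all 4 libraries. Such a region was present in 6 of 7 ribosomal proteins with other symbols, 9 of 12 translation factors, 21 of 22 genes of ribosome assembly and ribosomal RNA modification and 9 of 10 genes of mitochondrial DNA maintenance and transcription, beside 30.2% of all protein-coding genes. Together they gave 45 of 51 genes, which was not tested against other lists, and 6 symbols of these lists were not found in the annotation. Mrrf, the ribosome recycling factor, had percentiles of 98.5 and 98.1 with vehicle and 98.0 and 97.1 with forskolin, without overlap. Guf1, an elongation factor 4 relative, had 97.8 and 96.4 against 98.1 and 98.2, also without overlap. Those without such a region were Aurkaip1, Gfm1, Mtfmt, Mtrf1, Rpusd4 and Polrmt, the mitochondrial RNA polymerase. A forskolin-only region lay within 10 kb of 3 of the 51 (5.88%, beside 8.86% of all genes): Aurkaip1 (percentiles 42.6 and 40.3), Ngrn (23.4 and 12.4) and Rpusd4 (32.3 and 12.4), and the region near Aurkaip1 is also the one 33852.5 bp downstream of Mrpl20. Mrrf and Guf1 were chosen after their values were seen.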
